A study of Homo sapiens with 12 samples.

Results

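The genes of human mitochondrial DNA (mtDNA) were chosen as every row of the NKX2-2 count table whose gene name starts with MT-, which gave 37 of 60624 genes. They are 13 protein genes, 2 rRNA genes and 22 tRNA genes. Mitochondrial DNA is a small circular genome whose strands are both transcribed into long precursors. The tRNAs lie between most of the other genes, and their excision frees the mRNAs and rRNAs. The proteins are core subunits of oxidative phosphorylation complexes I, III and IV and of ATP synthase. All other subunits come from nuclear genes, as do the protein factors that copy and transcribe mtDNA and translate its mRNAs. In islet beta cells, ATP from oxidative phosphorylation couples glucose metabolism to insulin secretion.

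RNA-seq had been done on islet cells that expandable pancreatic progenitors (ePPs) of MEL1, a human embryonic stem cell line, had been turned into, collected at day 8 in the medium R6. The compared groups were 3 libraries labelled NKX2-2 knockout and 3 labelled wild type, and NKX2-2 is a transcription factor needed for islet cell identity. Both groups were in DMEM with B27, BSA, zinc sulfate, heparin, vitamin C, the thyroid hormone T3, forskolin, LDN-193189, Compound E and 616452, and ePPs were grown on feeder cells. The labels name no clone and do not say whether replicates were separate cultures, so p-values measure only the spread between the libraries at hand (possibly technical), and a difference between cell lines and the knockout cannot be told apart.

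The libraries held 16157481 to 20649976 counts, of which 1377655 to 2036366 came from mtDNA. NKX2-2 itself was at 95.3, 96.5 and 93.3 CPM (counts scaled to a common library size after TMM) in wild type and at 91.8, 67.9 and 68.2 CPM in knockout libraries, which did not pass the test (log2 fold change -0.32, edgeR adjusted p = 0.0610). Its deposited TPM was 60.8, 56.9 and 54.5 in wild type and 44.6, 30.6 and 28.6 in knockout. Every knockout library lay below every wild type library on both scales, but the transcript was still present, and the labels do not say what was edited, so its level is a weak check of the labels. Wild type replicate 3 and knockout replicate 3 stood apart from the other 4 libraries on the first principal component of the deviations from the group means, which took 66.5% of that variance. Of all 17436 tested genes 33.4% were called in this comparison, 16.6% higher and 16.8% lower in knockout. Of 14 tested endocrine markers 2 were higher and 8 lower in knockout, with a summed level of 5976 to 6723 CPM in wild type and 2659 to 3018 CPM in knockout. Of 16 mesenchyme markers 14 were higher and 1 lower, with 3864 to 4689 CPM in wild type and 8470 to 9417 CPM in knockout. Of 6 tested muscle and heart markers 3 were higher and 1 lower (54.8 to 63.6 CPM in wild type and 85.6 to 91.8 CPM in knockout), and of 8 liver markers 2 were higher and 3 lower (9986 to 11530 and 10010 to 12310 CPM). No marker was at 0. Markers of several cell types thus moved with the groups, and their part in the results below was not tested. In such bulk RNA a change in the number of cells of a type and a change in RNA per cell cannot be told apart.

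The tRNA genes that passed the test below are printed first, since their small size and their anticodons (in capitals) set them apart from one another. They are given 5′ to 3′ on their own strand, in GENCODE release 29 on GRCh38. MT-TN, MT-TC, MT-TP and MT-TE lie on the minus strand of the reference, MT-TL1 and MT-TD on the plus strand.
MT-TN (tRNA for asparagine, chrM:5657-5729): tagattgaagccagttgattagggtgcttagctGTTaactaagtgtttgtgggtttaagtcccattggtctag
MT-TC (tRNA for cysteine, chrM:5761-5826): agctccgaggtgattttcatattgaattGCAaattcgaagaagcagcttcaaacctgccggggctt
MT-TP (tRNA for proline, chrM:15956-16023): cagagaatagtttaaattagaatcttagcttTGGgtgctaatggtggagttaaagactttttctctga
MT-TE (tRNA for glutamic acid, chrM:14674-14742): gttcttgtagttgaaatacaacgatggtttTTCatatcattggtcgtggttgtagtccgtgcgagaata
MT-TL1 (tRNA for leucine, chrM:3230-3304): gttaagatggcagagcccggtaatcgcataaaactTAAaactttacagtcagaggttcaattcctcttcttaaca
MT-TD (tRNA for aspartic acid, chrM:7518-7585): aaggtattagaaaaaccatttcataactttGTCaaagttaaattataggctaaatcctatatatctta

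Some neighbouring protein genes of mtDNA overlap, which bears on how their reads can be counted. The end of MT-ATP8 shares 46 bases with the start of MT-ATP6, and the end of MT-ND4L shares 7 bases with the start of MT-ND4. The end of MT-ATP6 also shares 1 base with the start of MT-CO3 (chrM:9207). The shared bases of the first 2 pairs are in capitals.
MT-ATP8 (chrM:8512-8572, plus strand): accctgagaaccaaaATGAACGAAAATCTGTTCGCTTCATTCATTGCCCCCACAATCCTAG
MT-ND4L (chrM:10745-10766, plus strand): cctaaacctactccaATGCTAA
Some mtDNA mRNAs end before their stop codon is complete, and polyadenylation then adds the missing bases. As annotated in GENCODE release 29 this held for 6 of the 13 (MT-ND1, MT-ND2, MT-CO3, MT-ND3, MT-ND4 and MT-CYB), and 7 had a full codon. Among those 7, the last base of the MT-ATP6 stop codon is the base shared with MT-CO3. MT-ATP6 is therefore full by annotation only. The last 21 bases of the 2 mRNAs with the largest changes below and of the 2 with the smallest are printed with the stop codon, or the part of it that is encoded, in capitals.
MT-CO3 (chrM:9970-9990, plus strand): ccatctattgatgagggtctT
MT-ND3 (chrM:10384-10404, plus strand): aaggattagactgaaccgaaT
MT-ND4L (chrM:10746-10766, plus strand): ctaaacctactccaatgcTAA
MT-ND5 (chrM:14128-14148, plus strand): accctactcctaatcacaTAA

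Transcripts of all 3 classes of mtDNA genes took a larger share of the counts in every knockout library than in any wild type library. Protein genes took 6.93%, 6.41% and 7.33% of all counts in wild type replicates 1 to 3 and 8.23%, 9.16% and 8.87% in knockout, a ratio of the means of 1.27. The rRNA genes took 0.593%, 0.591% and 0.636% in wild type and 0.829%, 0.911% and 1.04% in knockout, a ratio of 1.53. The tRNA genes took 0.0554%, 0.0548% and 0.0562% in wild type and 0.0682%, 0.0825% and 0.0801% in knockout, a ratio of 1.39. In the plot of the classes by library, no wild type point reaches a knockout point. Each difference gave p = 0.1 in a two-sided exact permutation test, which is the smallest that 3 against 3 libraries allow, and 0.117 after Benjamini-Hochberg adjustment over 7 library measures. Of the mtDNA counts in a library, 88.8% to 91.5% fell on protein genes, 7.82% to 10.4% on rRNA genes and 0.701% to 0.812% on tRNA genes. On the deposited TPM scale, the protein genes rose from 12.6% ± 0.504 of the full TPM total in wild type to 15.4% ± 0.758 in knockout (SD, n = 3), but the TPM of all listed genes summed to only 41.4% to 47.2% of that total.

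**Figure D1:**
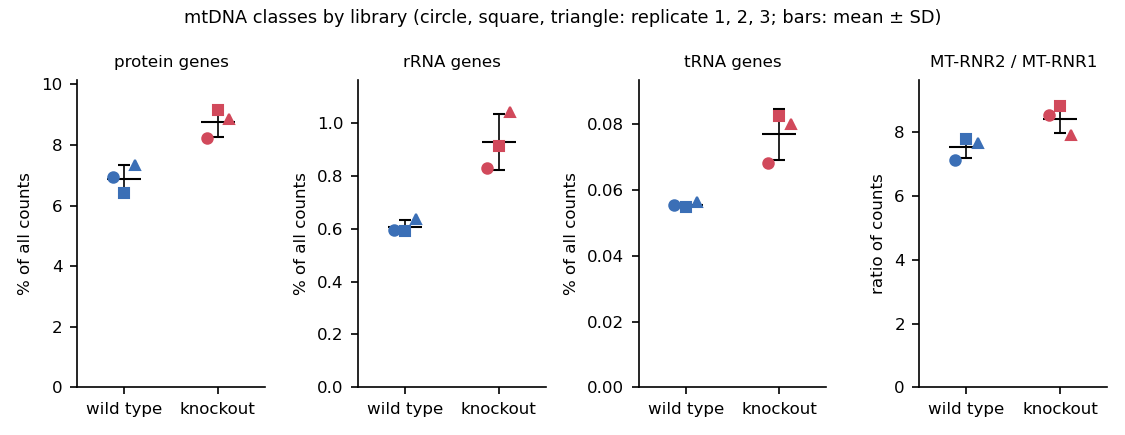
Share of all counts held by the mtDNA protein, rRNA and tRNA genes, and the ratio of MT-RNR2 to MT-RNR1 counts, per library (circle, square and triangle for replicates 1, 2 and 3, bars for mean ± SD, n = 3). All 3 knockout libraries lie above the wild type libraries in each panel.

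The ratio of summed rRNA to summed mRNA counts was higher in every knockout library, although MT-CO3 and MT-ND3 had larger log2 fold changes than either rRNA gene. It was 8.55%, 9.22% and 8.68% in wild type and 10.1%, 9.94% and 11.7% in knockout. The ratio of MT-RNR2 to MT-RNR1 counts was 7.13, 7.77 and 7.65 in wild type and 8.53, 8.80 and 7.91 in knockout, and the groups again did not overlap. Both gave exact permutation p = 0.1 and 0.117 after adjustment. MT-ND6 is the only mtDNA protein gene read from the opposite strand, and its counts were 2.12% ± 0.0814 of those of the other 12 mRNAs in wild type and 2.06% ± 0.136 in knockout (SD, n = 3). These groups overlapped (exact permutation p = 0.6). With the strand setting not given, reads of MT-ND6 and of the opposite strand cannot be separated.

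Gene by gene, all 13 mRNAs had a positive log2 fold change of knockout over wild type, from 0.084 to 0.71 with a median of 0.32. Over the 17436 genes tested the median was 0.033, and 9252 had a positive value. In edgeR's quasi-likelihood test, adjusted over all genes, 6 of the 13 were higher, 0 were lower and 7 did not pass (8 higher and 0 lower at an unadjusted p under 0.05, and 7 and 0 with DESeq2). Over all tested genes, 16.6% were called higher and 16.8% lower. For 9 of the 13 every knockout library lay above every wild type library, as did 23.1% of all tested genes. The count of calls depended on single libraries, with 3 without wild type replicate 1, 2 without wild type replicate 2 and 3 without knockout replicate 2. Same-numbered libraries deviated together, most of all those numbered 3. With the replicate number as a block, 10 of the 13 were higher and none lower, beside 23.4% and 22.7% of all genes. With both libraries numbered 3 left out, 9 were higher. Of the 6 mRNAs annotated with an incomplete stop codon 4 were called higher, and of the 7 with a full one 2, MT-ATP6 among them. This is a description with no test.

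**Figure D2:**
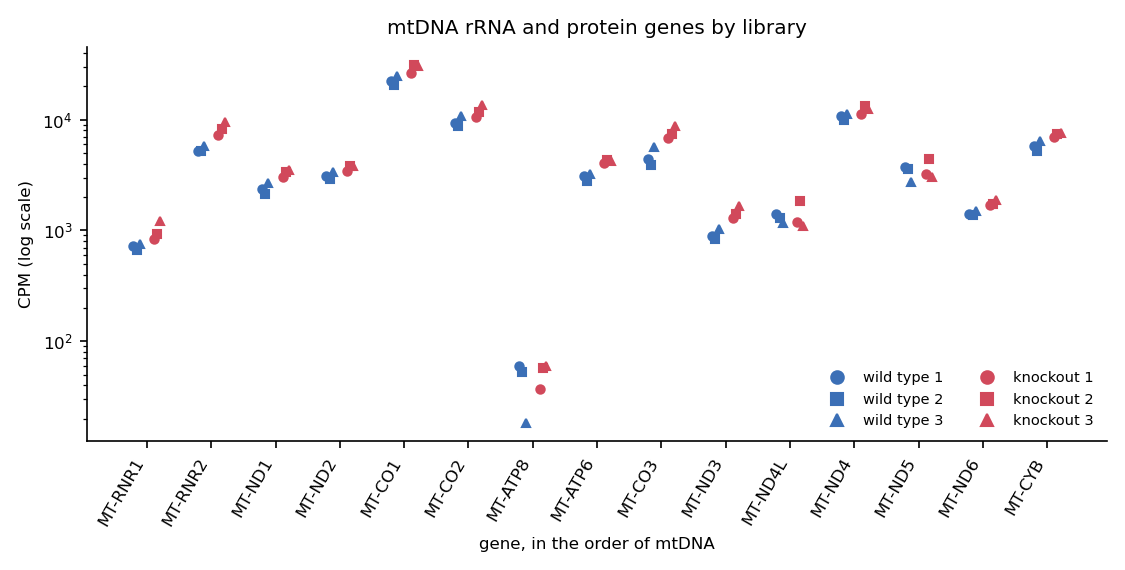
CPM of the 2 rRNA and 13 protein genes of mtDNA in each library, on a log scale, in the order of mtDNA (blue wild type, red knockout, symbols by replicate number). MT-CO3 and MT-ND3 separate by group, while MT-ND4L, MT-ND5 and MT-ATP8 overlap.

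Complex IV, cytochrome c oxidase, passes electrons to oxygen, and of its 3 subunits from mtDNA only MT-CO3 was called, with the highest log2 fold change of the 13 mRNAs. It was at 4448, 3898 and 5668 CPM in wild type and at 6794, 7409 and 8763 CPM in knockout, 1.64-fold higher (log2 fold change 0.71, SE 0.16, edgeR adjusted p = 0.00365). All knockout libraries lay above all wild type libraries, and within each group replicate 3 was the highest. MT-CO1, which carries haem and copper of the catalytic core, was at 22297, 20587 and 24829 CPM in wild type and at 26287, 31065 and 30355 CPM in knockout. MT-CO2, which takes electrons from cytochrome c, was at 9332, 8686 and 10680 CPM in wild type and at 10599, 11717 and 13466 CPM in knockout. The groups separated for MT-CO1 and overlapped for MT-CO2, where wild type replicate 3 lay above knockout replicate 1. Neither passed the edgeR test (log2 fold change 0.37, SE 0.14, adjusted p = 0.0557 for MT-CO1 and 0.32, SE 0.14, adjusted p = 0.1005 for MT-CO2), and both were called higher with the replicate block (adjusted p = 0.000533 and 0.00153). MT-CO1 was called in 8 of 17 alternatives, DESeq2 among them (adjusted p = 0.011), and MT-CO2 in 3.

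Complex I, NADH dehydrogenase, has 7 subunits from mtDNA, of which 3 were called higher. MT-ND3, the loop-bearing subunit at the base of the membrane arm, was at 883, 828 and 1039 CPM in wild type and at 1283, 1395 and 1671 CPM in knockout, 1.58-fold higher (log2 fold change 0.66, SE 0.13, edgeR adjusted p = 0.00186). MT-ND1, part of the ubiquinone site, was at 2380, 2128 and 2686 CPM in wild type and at 3030, 3342 and 3476 CPM in knockout, 1.37-fold higher (0.45, SE 0.13, adjusted p = 0.0144). MT-ND6, the subunit from the other strand, was at 1407, 1369 and 1504 CPM in wild type and at 1693, 1713 and 1892 CPM in knockout, 1.24-fold higher (0.31, SE 0.11, adjusted p = 0.0484). None of these 3 overlapped between groups. The call of MT-ND1 was lost without wild type replicate 1 (adjusted p = 0.0703), wild type replicate 2 (0.0992) or knockout replicate 2 (0.0656), and that of MT-ND6 was held in 8 of 17 alternatives (adjusted p from 0.000953 to 0.205).

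The proton-pumping subunits MT-ND2 and MT-ND4 did not pass the edgeR test, although their groups did not overlap. MT-ND2 was at 3125, 2895 and 3380 CPM in wild type and at 3434, 3836 and 3825 CPM in knockout (log2 fold change 0.24, SE 0.12, adjusted p = 0.145, and 0.0122 with the replicate block). MT-ND4 was at 10772, 9806 and 11099 CPM in wild type and at 11283, 13246 and 12537 CPM in knockout (0.23, SE 0.13, adjusted p = 0.199, and 0.0259 with the block). The smallest differences were in the other two. MT-ND5, also a proton pump, was at 3768, 3615 and 2751 CPM in wild type and at 3237, 4449 and 3052 CPM in knockout (0.084, SE 0.17, adjusted p = 0.730). MT-ND4L was at 1406, 1304 and 1155 CPM in wild type and at 1201, 1836 and 1103 CPM in knockout (0.099, SE 0.17, adjusted p = 0.692). The groups overlapped for these 2 genes, knockout replicate 2 was the highest library, and replicate 3 was the lowest in each group. Their sign turned without knockout replicate 2, to -0.16 for MT-ND4L and -0.10 for MT-ND5, and for MT-ND5 also without wild type replicate 3, to -0.046.

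MT-CYB is the only complex III subunit of mtDNA and holds the haems between which electrons cross the membrane. It was at 5723, 5182 and 6345 CPM in wild type and at 6982, 7405 and 7553 CPM in knockout, 1.27-fold higher without overlap (log2 fold change 0.35, SE 0.13, edgeR adjusted p = 0.0497). This call lay at the threshold and was held in 6 of 17 alternatives (adjusted p from 0.000485 to 0.242).

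Of the ATP synthase subunits, MT-ATP6, which forms the proton channel, was at 3099, 2812 and 3249 CPM in wild type and at 4051, 4288 and 4257 CPM in knockout, 1.38-fold higher without overlap (log2 fold change 0.46, SE 0.12, edgeR adjusted p = 0.00853). The call was lost without wild type replicate 2 (adjusted p = 0.0675). MT-ATP8, a short stalk subunit, was at 60.3, 53.4 and 18.3 CPM in wild type and at 37.1, 57.3 and 59.7 CPM in knockout, with overlap (0.22, SE 0.46, adjusted p = 0.750). Its log2 fold change was -0.15 without wild type replicate 3 and -0.26 without both libraries numbered 3. Counts of MT-ATP8 fell short of its deposited TPM. Per TPM and kb it had 1.60 counts, 15.7-fold below the median mRNA, while MT-ATP6 had 19.9 and the other 11 mRNAs had 23.3 to 26.3. Its TPM was 2623, 2301 and 2315 in wild type and 3122, 3301 and 2747 in knockout, without overlap. The counts and the TPM of this gene, whose end is printed above, therefore give different pictures.

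**Figure D3:**
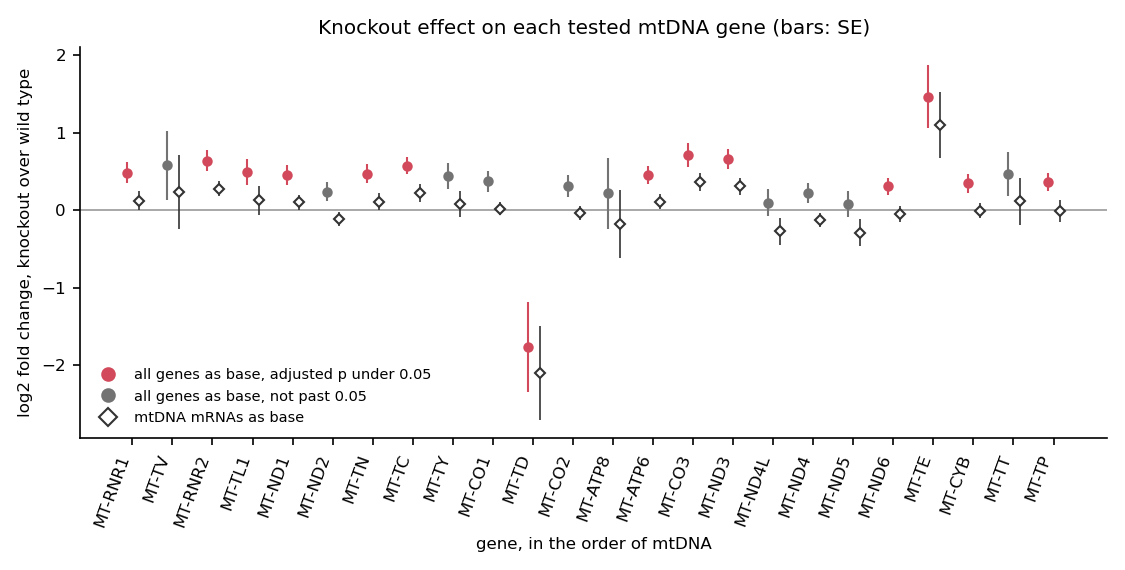
Log2 fold change of knockout over wild type for each tested mtDNA gene in the order of mtDNA, with SE (filled circles: relative to all genes, red where the adjusted p is under 0.05; open diamonds: relative to the mtDNA mRNAs). All filled circles but MT-TD lie above 0, and relative to the mRNAs MT-CO3, MT-ND3, MT-RNR2 and MT-TE stay called as higher and MT-TD as lower.

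Levels can be compared between genes only per length, for which the deposited TPM was used. In wild type, MT-CO1 (10925 ± 908 TPM) and MT-CO2 (10198 ± 909 TPM) had the highest mean levels. Within each library of both groups MT-CO1 lay above MT-CO2. Next in wild type came MT-ND4 (5573 ± 353), MT-CO3 (4402 ± 800), MT-ATP6 (4208 ± 282) and MT-CYB (3711 ± 319). Of these, MT-CO3 and MT-ATP6 lay within their SDs, and their order differed between libraries. The lowest mRNA was MT-ND5 (1387 ± 249, all SD, n = 3). In knockout MT-CO3 (7177 ± 602 TPM) followed MT-CO2, before MT-ND4 (6547 ± 528 TPM), with overlapping libraries, and MT-ND5 was again the lowest (1485 ± 344 TPM).

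The composition of the mtDNA mRNA pool was compared with a fit whose library size was the sum over the 13 protein genes, so that changes among these genes balance by construction. In it 2 of the 13 were higher and 0 lower, as at an unadjusted p under 0.05 and with DESeq2, and 44.5% of all tested genes were called, 7.67% higher and 36.9% lower. MT-CO3 held 6.47%, 6.17% and 7.62% of mtDNA mRNA counts in wild type and 8.502%, 8.07% and 9.52% in knockout, a relative log2 fold change of 0.37 (SE 0.11, edgeR adjusted p = 0.0165). MT-ND3 held 1.29%, 1.31% and 1.40% in wild type and 1.61%, 1.52% and 1.82% in knockout (0.31, SE 0.11, adjusted p = 0.0336). They are neighbours on mtDNA, with a single tRNA gene between them. Both were called in most alternatives, MT-CO3 in 9 and MT-ND3 in 7 of 11. Without wild type replicate 1 or 2 no mRNA was called in this fit, without knockout replicate 3 only 1 was, and without wild type replicate 3 there were 4, 2 higher and 2 lower.

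The shares of MT-ND1 and MT-ATP6 were also higher in every knockout library, by less, and neither passed the test. Those of MT-ND2 and MT-ND4 were lower in every knockout library. MT-ND4 held 15.7%, 15.5% and 14.9% in wild type and 14.1%, 14.4% and 13.6% in knockout (relative log2 fold change -0.13, SE 0.091, edgeR adjusted p = 0.265). MT-ND2 held 4.55%, 4.58% and 4.54% in wild type and 4.30%, 4.18% and 4.16% in knockout (-0.11, SE 0.094, adjusted p = 0.343). The other 7 overlapped, and MT-CO1 held 32.5% to 33.9% in all 6 libraries. With the replicate block 2 were higher and 2 lower, beside 8.47% and 42.8% of all tested genes (51.2% in all). The lower ones were MT-ND5 (-0.29 without and adjusted p = 0.0242 with the block) and MT-ND4L (-0.27 and adjusted p = 0.0292). MT-ND5 held 5.48%, 5.72% and 3.70% in wild type and 4.05%, 4.85% and 3.32% in knockout, so that each knockout library was below the wild type library of the same number although the groups overlapped. MT-ND4L held 2.05%, 2.07% and 1.55% in wild type and 1.503%, 2.001% and 1.20% in knockout, with the same order within pairs.

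**Figure D4:**
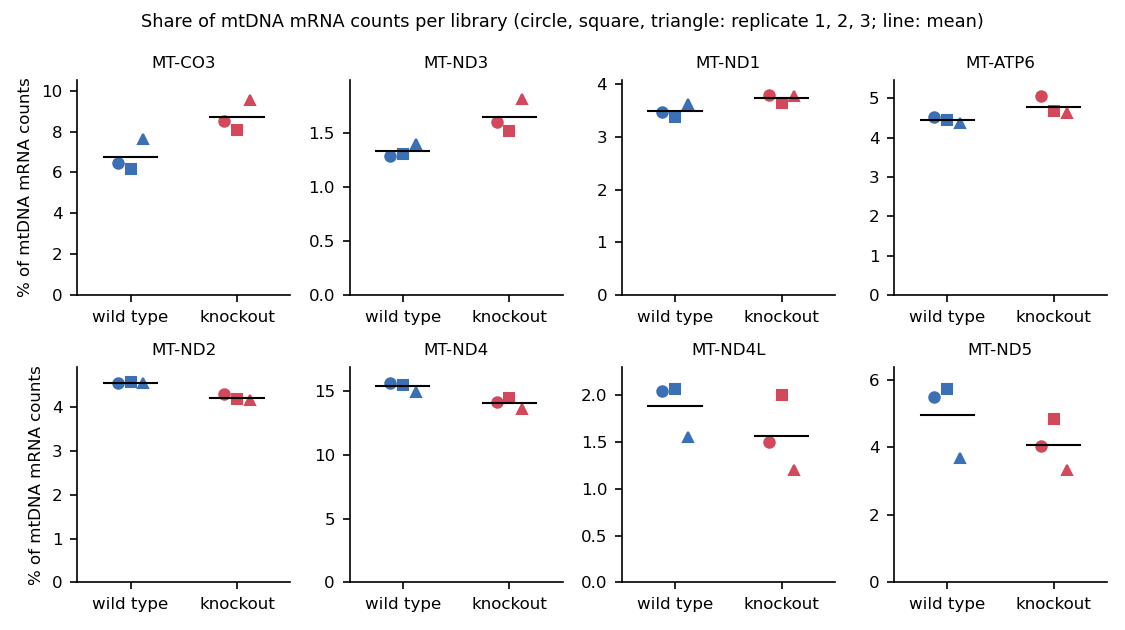
Share of mtDNA mRNA counts held by 8 protein genes in each library (circle, square and triangle for replicates 1, 2 and 3, line for the mean). The knockout libraries lie above the wild type libraries for MT-CO3, MT-ND3, MT-ND1 and MT-ATP6, below them for MT-ND2 and MT-ND4, and overlap for MT-ND4L and MT-ND5.

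Both rRNA genes of the mitochondrial ribosome were called higher, as were 16.6% of all tested genes. MT-RNR2, the rRNA of the large subunit (chrM:1671-3229), was at 5151, 5160 and 5714 CPM in wild type and at 7204, 8190 and 9580 CPM in knockout, 1.56-fold higher (log2 fold change 0.64, SE 0.14, edgeR adjusted p = 0.00279). MT-RNR1, the rRNA of the small subunit (chrM:648-1601), was at 722, 664 and 747 CPM in wild type and at 844, 930 and 1210 CPM in knockout, 1.40-fold higher (0.48, SE 0.14, adjusted p = 0.0153). Knockout replicate 3 was the highest library for both. Relative to the mtDNA mRNAs, MT-RNR2 was higher (0.28, SE 0.10, adjusted p = 0.0365), and MT-RNR1 did not pass (0.12, SE 0.12, adjusted p = 0.417). This relative call of MT-RNR2 was held in 4 of 11 alternatives and not with DESeq2. MT-RNR2 passed in all 17 alternatives of the first fit, and MT-RNR1 lost its call without wild type replicate 1 (adjusted p = 0.0512), without wild type replicate 2 (0.0743) and with limma on log2(TPM + 1) without a filter (0.0654).

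Of the 22 tRNA genes 13 were too low to be tested. Mature tRNAs are short, folded and modified, and whether these counts came from mature tRNAs or from their precursors cannot be told apart. MT-TN, MT-TC and MT-TP together held 92.8% to 95.1% of the tRNA counts, and 17 of the 22 genes had at most 200 counts in all 6 libraries together. MT-TS2 had 0 counts in each library, which allows at most 3 counts, or 0.145 to 0.186 CPM, for counting error only. Of the 9 tested, 5 were higher, 1 was lower and 3 did not pass, beside 16.6% of all tested genes called higher and 16.8% lower. MT-TC was at 123.3, 112 and 133 CPM in wild type and at 162, 203 and 184 CPM in knockout, 1.49-fold higher (log2 fold change 0.58, SE 0.11, edgeR adjusted p = 0.00145). MT-TN was at 311, 319 and 339 CPM in wild type and at 379, 464 and 503 CPM in knockout (0.47, SE 0.12, adjusted p = 0.00769). MT-TP was at 75.1, 79.5 and 68.1 CPM in wild type and at 80.4, 103 and 104 CPM in knockout (0.37, SE 0.12, adjusted p = 0.0325). Every knockout library lay above every wild type library for these 3 genes, as for 23.1% of all tested genes. The calls of MT-TC and MT-TN held in all 17 alternatives, that of MT-TP in 10.

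The other 3 called tRNA genes rested on fewer counts. MT-TL1 had 305, 229 and 189 counts in wild type and 253, 431 and 263 in knockout, or 14.6, 11.6 and 10.6 CPM against 15.2, 21.5 and 15.1 CPM (log2 fold change 0.49, SE 0.17, edgeR adjusted p = 0.0410). MT-TE, which lies beside MT-ND6 on the same strand, had 13, 13 and 8 counts in wild type and 21, 50 and 18 in knockout (1.47, SE 0.41, adjusted p = 0.0146). MT-TD was the only mtDNA gene called lower, with 14, 11 and 13 counts in wild type and 6, 1 and 3 in knockout (-1.77, SE 0.58, adjusted p = 0.0328). Groups did not overlap in CPM for these genes, as for 45.5% of all tested genes in either direction. Without knockout replicate 2 none of the 3 calls held (adjusted p = 0.233 for MT-TL1, 0.124 for MT-TE and 0.145 for MT-TD), and in all 2 tRNA genes were then called, as against 3 without wild type replicate 2. DESeq2, which called 28.3% of all genes, did not call MT-TD (adjusted p = 0.0974).

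By strand, 4 of the 8 tRNA genes on the minus strand were called higher (5 tested) and 1 of the 14 on the plus strand (4 tested), with 1 lower there. The same test called 16.6% of all tested genes higher and 16.8% lower. The minus-strand genes summed to 525 to 557 CPM in wild type and 642 to 811 CPM in knockout, and the plus-strand genes to 13.7 to 18.7 and 19.8 to 25.3 CPM. The strand setting of the libraries was not given, so reads from opposite strands cannot be separated here. The deposited TPM gave more tRNA calls. With limma on log2(TPM + 1), 12 of the 22 were higher and 2 lower (MT-TD and MT-TM), beside 13.9% and 14.5% of all genes tested so (28.4% in all). Of these 14, 9 had at most 200 counts in all libraries together. MT-TA had 10 counts in all but 1917, 1819 and 1732 TPM in wild type and 2222, 2862 and 2647 TPM in knockout, 2290-fold fewer counts per TPM and kb than the median mRNA. MT-TS2, with no count, was listed at 4.00 to 9.09 TPM. For these genes counts and TPM were not proportional, and the cause was not tested.

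Nuclear copies of mtDNA can draw reads from it. Of 408 such rows 41 had counts, and their sum, which is not part of the mtDNA counts, equalled 0.643% to 0.751% of them, with 98.0% of that sum in 3 pseudogenes that lie in a row at chr1:629640-634376. MTATP6P1 had 6806, 5350 and 5048 counts in wild type and 6114, 8508 and 7774 in knockout (log2 fold change 0.49, SE 0.12, edgeR adjusted p = 0.00512). MTCO1P12 (0.31, adjusted p = 0.0507) and MTND2P28 (0.20, adjusted p = 0.150) did not pass. These copies are nearly identical to mtDNA, so counts of both are uncertain.

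The nuclear subunits of the same complexes were set beside the mtDNA genes. Of 77 tested nuclear subunits 2 were higher and 0 lower in edgeR and in DESeq2 (7 and 0 at an unadjusted p under 0.05), with a median log2 fold change of 0.15. Over all tested genes edgeR called 16.6% higher and 16.8% lower. By complex, none of 35 was called in complex I (median 0.098), none of 4 in complex II (0.069), none of 9 in complex III (0.21), 1 of 11 in complex IV (0.18) and 1 of 18 in ATP synthase (0.17). The called genes were NDUFA4, a complex IV subunit despite its name, at 119, 121 and 157 CPM in wild type and 148, 186 and 226 CPM in knockout (0.50, SE 0.15, edgeR adjusted p = 0.0242), and ATP5MPL, a small ATP synthase subunit (0.46, SE 0.15, adjusted p = 0.0313). Both overlapped between groups. With the smallest p elsewhere, NDUFA11 and NDUFS5 of complex I had 0.36 (adjusted p = 0.0616) and 0.35 (0.0738), SDHA and SDHC of complex II had -0.22 (0.210) and 0.18 (0.242), and UQCR10 and UQCR11 of complex III had 0.35 (0.109) and 0.27 (0.1201). COX6C of complex IV had 0.31 (0.150) and ATP5PF of ATP synthase had 0.31 (0.103).

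With the replicate block 26 of the 77 nuclear subunits were higher and none lower, beside 23.4% and 22.7% of all genes. Of these 26, 10 were in complex I, 4 in complex III, 5 in complex IV and 7 in ATP synthase. Without wild type replicate 1, wild type replicate 2 or knockout replicate 2 none was called, without knockout replicate 3 there was 1, and without wild type replicate 3 or knockout replicate 1 there were 14 and 11. Relative to the mtDNA mRNAs, none of the 77 was higher and 19 were lower (24 with the block), against 36.9% of all genes. Of the 77 values, 56 were positive, beside 9252 of all 17436 tested genes. The median of the 77 lay below that of the mtDNA mRNAs.

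**Figure D5:**
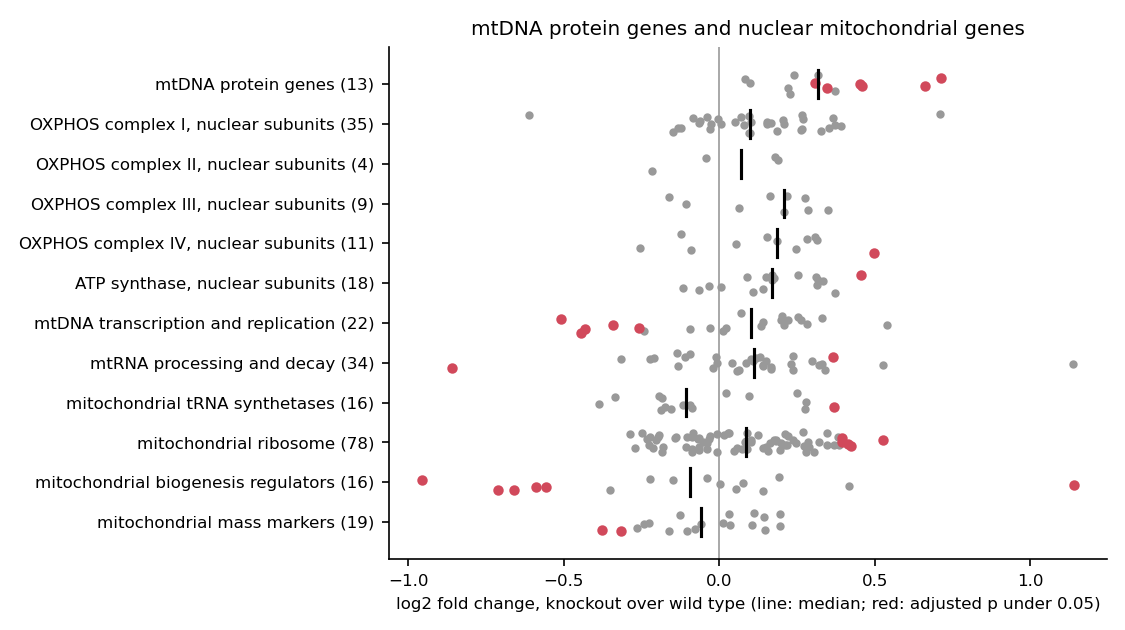
Log2 fold change of knockout over wild type for the mtDNA protein genes and for nuclear mitochondrial genes by list (number tested in parentheses; vertical line: median; red: adjusted p under 0.05). Of these lists the mtDNA protein genes have the highest median, 0.32, and the called biogenesis regulators run from -0.96 to 1.14.

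Among 22 genes of mtDNA transcription and replication 0 were higher and 5 lower in knockout in edgeR and in DESeq2 (2 and 6 at an unadjusted p under 0.05), with a median of 0.10. TOP1MT, the mitochondrial topoisomerase, was at 28.5, 26.3 and 28.9 CPM in wild type and at 21.5, 17.4 and 20.05 CPM in knockout (log2 fold change -0.51, SE 0.12, edgeR adjusted p = 0.00556). TOP3A, which separates daughter mtDNA circles, had -0.43 (adjusted p = 0.0237), POLG, the mtDNA polymerase, -0.34 (0.0331), and TWNK, the helicase, -0.44 (0.0443). POLRMT, the mitochondrial RNA polymerase, was at 133, 135 and 145 CPM in wild type and at 115 CPM in each knockout library (-0.26, SE 0.093, adjusted p = 0.0474). TFAM, which packages mtDNA and starts its transcription, was at 62.8, 65.1 and 62.3 CPM in wild type and at 64.1, 75.0 and 80.6 CPM in knockout and did not pass (0.21, SE 0.11, adjusted p = 0.167). The called share of this list, 22.7%, lay below the 33.4% of all genes. A positive value was held by 14 of the 22 genes, beside 9252 of all 17436 tested genes. With the block 2 were higher and 6 lower, beside 23.4% and 22.7% of all genes, and with upper-quartile scaling 1 and 2. Without wild type replicate 1, wild type replicate 2 or knockout replicate 3 there was 1 call, and without knockout replicate 2 there were 2. POLRMT was called in 6 of 17 alternatives and TOP1MT in all 17.

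Of 34 genes of mitochondrial RNA processing and decay 1 was higher and 1 lower (median 0.11). PDE12, which trims poly(A) tails of mitochondrial mRNA, was at 55.4, 56.8 and 45.9 CPM in wild type and at 26.1, 32.9 and 28.1 CPM in knockout, without overlap (log2 fold change -0.86, SE 0.13, edgeR adjusted p = 0.000192), and was called lower in all 17 alternatives. REXO2, which degrades short RNA oligonucleotides in mitochondria, was at 33.2, 34.7 and 36.1 CPM in wild type and at 42.9, 42.8 and 48.4 CPM in knockout (0.37, SE 0.11, adjusted p = 0.0202). Of 16 mitochondrial tRNA synthetases 1 was higher and 0 lower (4 and 2 at an unadjusted p under 0.05, 0 and 0 with DESeq2; median -0.11), FARS2 with 0.37 (adjusted p = 0.0403), while LARS2 had -0.34 (0.0788). Of 78 proteins of the mitochondrial ribosome, whose rRNAs are MT-RNR1 and MT-RNR2, 5 were higher and 0 lower (9 and 5 at an unadjusted p under 0.05, 4 and 3 with DESeq2; median 0.086), led by MRPS6 with 0.53 (adjusted p = 0.0150) and MRPS9 with 0.39 (0.0209). With the block these lists gave 6 higher and 4 lower, 4 and 2, and 17 and 7. Of all tested genes 23.4% were called higher and 22.7% lower with the block, and 16.6% and 16.8% without it. Without wild type replicate 2 no ribosomal protein was called, without wild type replicate 1 or knockout replicate 2 there was 1, without knockout replicate 3 there were 2, and without wild type replicate 3 or knockout replicate 1 there were 10 and 11. FARS2 was called in 10 of 17 alternatives, and REXO2 in 12.

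Of 16 regulators of mitochondrial biogenesis 1 was higher and 5 lower (median -0.095), 37.5% in all and so near the 33.4% of all genes. PPARGC1A, a coactivator that drives mitochondrial biogenesis, was at 7.44, 5.65 and 5.35 CPM in wild type and at 11.5, 14.03 and 15.3 CPM in knockout (log2 fold change 1.14, SE 0.17, edgeR adjusted p = 0.000209). ESRRA, a nuclear receptor that partners with it, was at 99.2, 113 and 115 CPM in wild type and at 67.0, 66.4 and 66.5 CPM in knockout (-0.71, SE 0.10, adjusted p = 0.000118). The groups separated for both, in opposite directions, and both calls held in all 17 alternatives. Also lower were MYC (-0.66), PPARA (-0.96), SIRT1 (-0.56) and PPARGC1B (-0.59). Of 19 markers of mitochondrial mass, proteins of the membranes and matrix, 0 were higher and 2 lower in edgeR (0 and 4 at an unadjusted p under 0.05, 0 and 3 with DESeq2, 2 and 5 with the block; median -0.060). These were SLC25A4, an ADP and ATP carrier (-0.32, adjusted p = 0.0457), and CS, citrate synthase (-0.38, adjusted p = 0.0497), and neither was called under upper-quartile scaling or without wild type replicate 1, wild type replicate 2 or knockout replicate 2. Relative to the mtDNA mRNAs 13 of the 19 were lower and 0 higher, on a base that shifts the median of all genes to -0.32 and calls 36.9% of them lower. Over all 12 nuclear lists together 11 of 268 tested genes were higher and 13 lower, 8.96% in all beside 33.4% of all genes. With the block 62 of them were higher and 32 lower, where 23.4% of all genes were called higher and 22.7% lower (46.1% in all).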

How the data were processed

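The authors deposited raw counts per Ensembl gene and TPM values for each library. The tools, per the submitters' processing notes, were HISAT2 2.2.1, fastp 0.22.0 and StringTie 2.1.7, on hg38, with strand setting, library kit, annotation release and read counter not given in the sources used here. Overlapping genes and genes on opposite strands therefore cannot be separated. In the CLEC16A experiment of the same series, 0 of the 37 mtDNA rows are above 0, and it was not used. Rows for the Y copy of a pseudoautosomal gene (45) were dropped.

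Counts were tested with edgeR 4.0.16 (quasi-likelihood, robust, TMM, filterByExpr) in R 4.3.3 on the whole table, with Benjamini-Hochberg adjustment over all 17436 tested genes and a threshold of 0.05. SE was taken as the size of the log2 fold change divided by the square root of F. A second fit used the sum over the 13 mtDNA protein genes as library size. Library measures were compared by two-sided exact permutation. Same-numbered libraries deviated together from their group means (correlations of 0.351, 0.225 and 0.705 over 10716 genes with a mean of at least 10 CPM). Deviations within a group cancel out, so these correlations are not independent of one another. The numbers were used as a block, but a pairing apart from that of the libraries numbered 3 was not tested. The labels do not say what a number marks. Replicates differed beyond sampling noise (chi-square per degree of freedom of 3.84 to 25.3). The alternatives tried were upper-quartile and RLE scaling, DESeq2 1.42.0, scaling without mtDNA genes, other filters, the block, limma 3.58.1 on log2(TPM + 1) and log2(TPM + 0.1), a base of all 37 genes, and leaving out each library. Leaving out both libraries numbered 3 was added after seeing the data. On simulated counts (16804 genes), edgeR recovered 79.8% of 2-fold and 99% of 4-fold changes, with 6.38% false calls. The simulated libraries were drawn independently, with few genes changed and none by less than 2-fold. These rates therefore do not carry over to the smaller changes of most mtDNA genes.

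Named genes are all mtDNA protein and rRNA genes, tRNA genes that pass, the 2 members of smallest p in each nuclear list, and POLRMT, TFAM and PPARGC1A; the remaining called members of 2 lists were named after their values were seen. The members and lists were chosen with earlier results of these data known. Coordinates and sequences are those of GENCODE release 29 (GRCh38).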

Additional observations from a re-analysis of the deposited data

How the results depend on the processing

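With the replicate block, 10 protein genes and 94 genes of the nuclear lists were called, beside 46.1% of all tested genes. Relative to the mtDNA mRNAs, 4 protein genes were called with the block, beside 51.2% of all tested genes. Without a filter, limma on log2(TPM + 1) called 3247 of all genes, 13 of the nuclear lists and 1 rRNA gene. With its filter, limma called 14 tRNA genes with either pseudocount. Leaving out both libraries numbered 3 gave 45 calls in the nuclear lists. Leaving out each library gave 2 to 8 protein genes, 1 to 2 rRNA genes, 2 to 6 tRNA genes, 0 to 4 protein genes relative to the mRNAs, and 8 to 49 nuclear genes. On TPM, shares were taken of the summed TPM of all listed genes. The knockout minus wild type difference in share was 4.02 percentage points for all 37 genes, 2.82 for protein genes and 0.890 for tRNA genes. For rRNA relative to mRNA it was 0.989. The nuclear lists split 22 higher to 8 lower with upper-quartile scaling and 9 to 18 with DESeq2. No call for a protein or rRNA gene changed sign, and the cause of these differences was not tested.

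Values near 0 turned. The difference in MT-ND6 relative to the other mRNAs was 0.0084 without knockout replicate 2 (from -0.122 over single libraries left out). Log2 fold changes became -0.16 (MT-ND4L) and -0.10 (MT-ND5) without knockout replicate 2, -0.046 (MT-ND5) and -0.15 (MT-ATP8) without wild type replicate 3, and -0.26 (MT-ATP8) without both libraries numbered 3. Relative to the mtDNA mRNAs, MT-CYB became 0.012 without wild type replicate 3, 0.020 without knockout replicate 2, 0.0084 without knockout replicate 3 and 0.023 without both numbered 3. MT-ND6 became 0.0056 and MT-CO2 0.0054 without knockout replicate 2, MT-CO1 -0.0045 with a base of all 37 genes, MT-ATP8 0.088 and 0.043 without wild type replicates 1 and 2, and MT-RNR1 -0.00017 without knockout replicate 3 and -0.022 without both numbered 3. Over single libraries left out, the other ends of these ranges were 0.24 (MT-ND4L), 0.19 (MT-ND5) and 0.51 (MT-ATP8), and relative to the mRNAs -0.084 (MT-ND6), -0.038 (MT-CYB), -0.094 (MT-CO2), -0.57 (MT-ATP8) and 0.196 (MT-RNR1). Low counts limit most tRNA genes, and 3 libraries per group limit every p-value.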
